A study of Mus musculus with 29 samples.

Results

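The effect of alcohol added to a high-fat diet was examined in non-tumour liver of wild-type (WT) mice, by setting 5 libraries labelled HFD_alcohol (called alcohol here) against 3 labelled HFD. These 8 libraries belong to a series of 29 that also holds tumours and libraries labelled IL17RA-/-. All mice were C57BL/6. Each had received 25 mg/kg of the carcinogen diethylnitrosamine (DEN) intraperitoneally when 2 weeks old and stayed on its diet for 18 weeks, so the HFD mice carry the carcinogen too and are no healthy control. The sample labels name the diets HFD and HFD_alcohol and were used here, although the series text speaks of liquid ethanol with pair-fed controls. Sex, ethanol dose and whether each library came from its own animal are not stated in the sources used here, so a p-value here reflects spread among libraries. Genes were kept when they reached 1 CPM (a count scaled to a common library total) in at least 3 of the 8 libraries, which left 12505 of the 22187 genes in the deposited table. The choice of genes uses no difference between the diets. Values per library are listed in replicate order, alcohol 1 to 5 and then HFD 1 to 3, and differences are alcohol minus HFD on the log2(CPM + 1) scale.

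Ethanol is oxidised in hepatocytes by cytosolic alcohol dehydrogenase (Adh1) to acetaldehyde, which mitochondrial aldehyde dehydrogenase (Aldh2) turns into acetate. The cytochrome P450 enzyme Cyp2e1, which sits in hepatocytes around the central vein, and catalase (Cat) in peroxisomes are further routes, and Cyp2e1 also activates DEN. A high-fat diet loads hepatocytes with triglyceride, and both fat and alcohol are known to draw monocytes into the liver, to activate stellate cells and to disturb the genes that hepatocytes express by zone and by sex.

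The 8 libraries held 5869392 to 8897860 counts, so 3 counts, taken as the floor of detection, stood for 0.337 to 0.511 CPM. The defining markers of hepatocytes were high in all 8, with Alb at 31600 to 44000 CPM in alcohol and 36500 to 41200 in HFD, and no 2 libraries were alike within counting error. The HFD group was uneven. On the first principal component, which held 44.3% of the variance, HFD replicates 1 and 3 lay at 42.3 and 23.0 and HFD replicate 2 at -14.1, while alcohol replicate 1 lay at 22.3 and alcohol replicates 2 to 5 between -28.8 and -2.7. HFD replicate 1 also held markers of tumours. Afp, the fetal albumin-like protein of liver tumours, was at 7.45, 1.99, 2.84, 28.97 and 6.56 CPM in alcohol and 141, 9.37 and 5.17 in HFD, against 108 to 482 CPM in WT tumours on HFD. Prom1, a stem and progenitor cell surface protein, was at 2.44, 1.07, 1.26, 4.52 and 2.36 CPM in alcohol and 17.6, 4.77 and 2.25 in HFD, against 18.7 to 72.5 CPM in those tumours. Gpc3, a tumour glypican, did not set that library apart, at 6.91, 0.919, 3.16, 29.8 and 5.38 CPM in alcohol and 21.99, 8.35 and 1.69 in HFD. Alcohol replicate 4 was the highest of the 8 libraries for Gpc3 and next after HFD replicate 1 for Afp. Its tumour marker list summed to 471 CPM, against 856, 241 and 275 in HFD replicates 1 to 3. The main results below are given with and without HFD replicate 1. Whether HFD replicate 1 or alcohol replicate 4 holds tumour tissue was not tested.

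Across all genes the difference between the diets did not exceed the spread between libraries. That spread was estimated over 16 non-tumour libraries, those labelled IL17RA-/- included. With limma on log2(CPM + 1), 0 of 12505 genes passed a Benjamini-Hochberg adjusted p of 0.05 (0% called); the lowest adjusted p was 0.877, so every single-gene value below is a description and not a call. At an unadjusted p under 0.05 there were 510 genes, of which 394 were lower (3.15%) and 116 higher (0.928%) in alcohol. Together these shares were below the threshold itself, which is the share flagged on average where no gene differs. Limma-voom on recovered counts also called 0, with 580 at an unadjusted p under 0.05. All 5 alcohol libraries lay below all 3 HFD libraries for 316 genes (2.53%) and above them for 70 (0.560%). The difference was negative for 8320 genes (66.5%), with a median of -0.08 on the log2(CPM + 1) scale; rescaling the libraries to a common median ratio moved that median to -0.0046, so small negative medians of a list lie near this general offset.

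Without HFD replicate 1, 0 genes were called (0%) and 154 were at an unadjusted p under 0.05, 108 lower (0.864%) and 46 higher (0.368%). All 5 alcohol libraries then lay below both HFD libraries for 473 genes (3.78%) and above both for 214 (1.71%). The share of genes with a negative difference was then 60.5%, with a median of -0.04. Leaving out HFD replicate 2 instead gave 1301 genes at an unadjusted p under 0.05, and leaving out alcohol replicate 1 gave 840. These shares are the background against which the counts of each gene group are read.

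Genes of cell division made up most of the 12 genes named for a negative difference. Some genes whose diets overlapped, H2-Eb1 at -1.62 among them, had larger negative differences and fell outside this choice. The 12 genes named for the largest negative difference, among those with no overlap between diets and a mean of at least 5 CPM in HFD, were Ckap2, Ccnb1, Hist2h3c2, Hist1h2bk, Hmmr, Cenpf, Cdca3, Kcnj2, Kif20a, Mki67, Cdk1 and Smoc2, out of 92 that met the rule. Cdca3, a mitotic entry factor (ENSMUSG00000023505, chromosome 6, 124829547 to 124833701, GRCm38), was at 1.76, 1.53, 1.895, 2.54 and 2.098 CPM in alcohol and 8.97, 3.58 and 6.74 in HFD, a log2 difference of -1.26 ± 0.33 (SE). The alcohol values were even, and HFD replicate 2 was the nearest of the HFD libraries. Ccnb1, cyclin B1, the partner of Cdk1 at mitosis (ENSMUSG00000041431, chromosome 13, 100778650 to 100786570), was at 3.25, 1.99, 1.105, 1.84 and 1.97 CPM in alcohol and 13.2, 3.75 and 5.96 in HFD, a difference of -1.39 ± 0.5 (SE), and HFD replicate 1 was highest. Cdk1, the kinase itself, was at 3.93, 3.83, 2.68, 3.25 and 2.36 CPM in alcohol and 14.2, 4.43 and 6.86 in HFD, with a difference of -1.05 ± 0.43 (SE). Ckap2, a spindle protein, had the largest difference of the 12, -1.4 ± 0.43 (SE), with means of 1.62 ± 0.76 CPM (SD, n = 5) against 5.85 ± 2.02 (n = 3).

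Mki67, the Ki-67 proliferation antigen, was the most abundant of them, at 27.6, 13.9, 13.7, 16.96 and 14.4 CPM in alcohol and 56.04, 29.8 and 30.01 in HFD; its difference was -1.1 ± 0.51 (SE), and alcohol replicate 1 lay just under HFD replicates 2 and 3. Hmmr, a spindle-associated hyaluronan receptor, was at 1.93 ± 0.787 CPM (SD, n = 5) against 6.51 ± 3.86 (n = 3), and Cenpf, a kinetochore protein, at 3.26 ± 1.88 CPM (SD, n = 5) against 8.58 ± 2.32 (n = 3). Kif20a, a mitotic kinesin, differed by -1.1. The histone genes Hist2h3c2 and Hist1h2bk differed by -1.33 and -1.29; they belong to families of near-identical copies, so their counts are uncertain. The pair without a role in division were Kcnj2, an inward rectifier potassium channel, at 4.88, 2.14, 2.05, 4.24 and 2.49 CPM in alcohol and 7.29, 11.8 and 5.73 in HFD, and Smoc2, a calcium-binding matricellular protein, at 3.93, 3.22, 3.47, 4.52 and 3.54 CPM in alcohol and 9.95, 6.13 and 9.89 in HFD. Kcnj2 was highest in HFD replicate 2 and Smoc2 was about as high in HFD replicates 1 and 3. Without HFD replicate 1 the differences were -1.01 for Cdca3, -0.96 for Ccnb1, -1.17 for Ckap2, -0.65 for Cdk1, -0.8 for Mki67, -1.21 for Kcnj2 and -0.9 for Smoc2. In bulk liver, fewer cells of a type and less RNA per cell cannot be told apart, here and for every cell type below.

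The cell cycle list had 39 tested members, and 38 of them had a negative difference; Tk1, thymidine kinase, chosen after its value was seen, was the exception. The list median was -0.87, against -0.08 over all genes, and -0.52 without HFD replicate 1, when 35 were negative. All 5 alcohol libraries lay below all 3 HFD libraries in 14 of 39 members, against 2.53% of all genes, and in 15 of 39 without HFD replicate 1, against 3.78%. At an unadjusted p under 0.05 there were 18 of 39 members lower and 0 higher, against 3.15% and 0.928% of all genes. Without HFD replicate 1 there were 0 lower and 0 higher, against 0.864% and 0.368% of all genes. The mean log2(CPM + 1) of the list was 2.5, 2.29, 2.18, 2.19 and 2.22 in alcohol and 3.61, 2.55 and 2.9 in HFD. The diets did not overlap on this value, and HFD replicate 2 lay only just above alcohol replicate 1. Top2a, topoisomerase II alpha, which untangles replicated DNA, was at 15.2, 8.27, 7.74, 7.63 and 9.05 CPM in alcohol and 47.6, 14.99 and 20.2 in HFD, with a difference of -1.31 ± 0.51 (SE). Plk1, the polo-like mitotic kinase, was at 0.677, 0.766, 1.105, 1.41 and 0.787 CPM in alcohol and 5.32, 1.36 and 1.57 in HFD, and the diets overlapped narrowly for both. For scale, WT tumours on HFD held 32.6 to 67.3 CPM of Top2a and 42.6 to 139 CPM of Mki67, so HFD replicate 1 lay within that range for both and the other 7 libraries below it. WT tumours on alcohol ranged more widely, from 10.1 to 75.1 CPM of Top2a and from 23.9 CPM upward of Mki67, and these ranges held alcohol replicate 1 and all 3 HFD libraries. The 17 tumour markers in the table, which include Mki67, summed to 121 to 471 CPM in alcohol and 241 to 856 CPM in HFD, and their part in the cell cycle values was not tested.

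**Figure D1:**
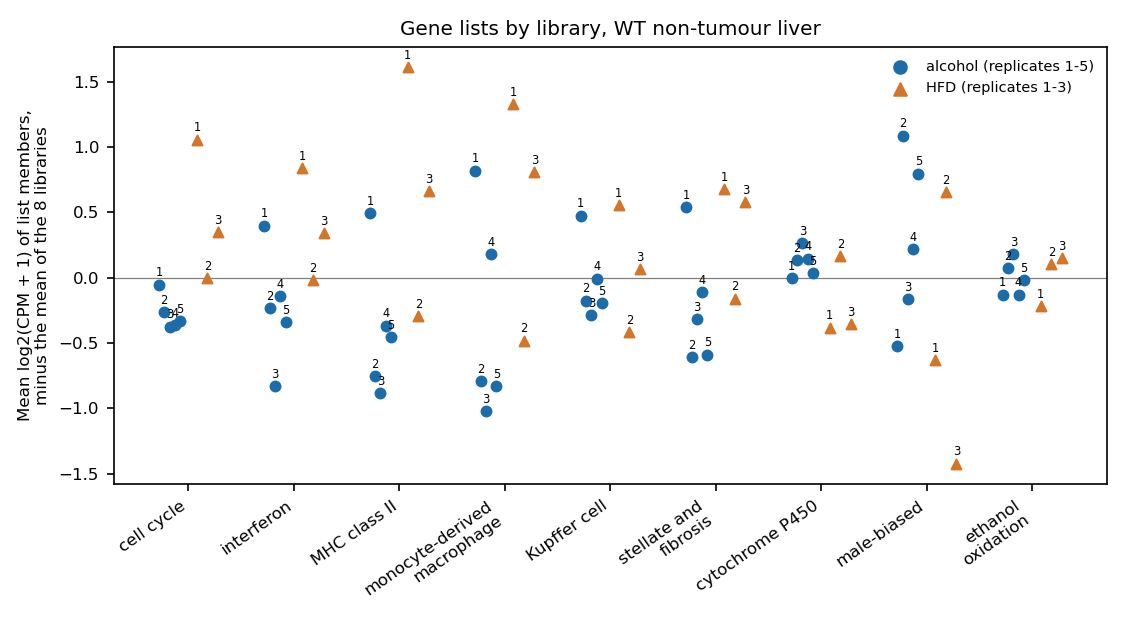
Mean log2(CPM + 1) of the members of 9 gene lists in each WT non-tumour library, minus the mean of the 8 libraries; circles are the 5 alcohol libraries and triangles the 3 HFD libraries, numbered by replicate. On the cell cycle list all circles lie below all triangles, while on the immune lists alcohol replicate 1 lies among the HFD libraries and HFD replicate 2 lies near the alcohol libraries.

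Late cell cycle genes are known to be held in check through the cell cycle homology region, a short promoter element bound by the DREAM complex. It was searched as TTTGAA or TTCGAA on both strands in the 300 bases of each RefSeq promoter (250 before and 50 after the start, GRCm38.p6). A match was found for 17 of the 31 cell cycle members with a promoter in the table (54.8%), against 21.7% of all 27025 genes with one and 16.8% of the tested genes. The stretches below, all before the start, are shown for 3 named members with a match there, because their mean levels were lower in alcohol; capitals mark the match. Cenpf and Plk1 also held a match, after the start, and are not shown. Mki67 is given from chr7:135716380-135716504, Cdk1 from chr10:69352913-69353037 and Top2a from chr11:99024190-99024439, all on the minus strand and written in the direction of the gene.
Mki67: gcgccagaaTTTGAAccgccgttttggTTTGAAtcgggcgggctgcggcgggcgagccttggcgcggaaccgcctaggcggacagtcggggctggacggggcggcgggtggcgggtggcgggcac
Cdk1: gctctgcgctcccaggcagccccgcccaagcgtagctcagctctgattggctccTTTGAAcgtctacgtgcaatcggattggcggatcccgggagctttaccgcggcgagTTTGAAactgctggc
Top2a: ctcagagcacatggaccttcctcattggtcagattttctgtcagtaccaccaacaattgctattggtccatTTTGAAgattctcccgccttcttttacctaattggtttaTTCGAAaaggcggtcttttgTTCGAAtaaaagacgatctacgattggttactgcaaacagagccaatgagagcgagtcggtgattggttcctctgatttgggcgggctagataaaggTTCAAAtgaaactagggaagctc
In Mki67 the matches begin 116 and 98 bases before the start, and in Cdk1 71 and 15 bases before it. Top2a held 4, beginning 179, 140, 120 and 23 bases before the start; those at 140 and 120 read the same on both strands, and the one at 23 lies on the other strand. A match is a description of letters and not a bound site.

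The 12 genes named for the largest positive difference were Cd163, Tat, Trp53inp1, Slc7a2, Fcna, Cpeb2, Slc25a51, Zfp97, Slc19a2, Eva1a, Slc18a2 and Znrf3, out of 25 that met the rule. Cd163, the macrophage scavenger receptor for haemoglobin bound to haptoglobin (ENSMUSG00000008845, chromosome 6, 124304656 to 124330527, GRCm38), was at 69.5, 23.7, 45.8, 41.1 and 31.2 CPM in alcohol and 12.8, 17.6 and 19.4 in HFD, a difference of 1.23 ± 0.42 (SE). Alcohol replicate 1 was highest and alcohol replicate 2 lay just above HFD replicate 3. Fcna, a lectin made by liver macrophages, was at 52.7, 71.7, 56.2, 45.8 and 61.5 CPM in alcohol and 38.5, 41.9 and 33.7 in HFD, with a difference of 0.57 ± 0.24 (SE). Tat, the tyrosine-degrading aminotransferase that glucocorticoids induce in liver (ENSMUSG00000001670, chromosome 8, 109990437 to 109999803), was at 1270, 1745, 1652, 1227 and 1907 CPM in alcohol and 787, 1128 and 699.9 in HFD; the difference was 0.85 ± 0.37 (SE), and HFD replicate 2 came close to alcohol replicates 1 and 4. Trp53inp1, a stress protein that p53 induces (ENSMUSG00000028211, chromosome 4, 11156431 to 11174379), was at 441, 317, 329.5, 353 and 441 CPM in alcohol and 249, 246 and 194 in HFD, with a difference of 0.71 ± 0.27 (SE) and 3 even HFD values.

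Several transporters stood among them. Slc7a2, a carrier of arginine and other basic amino acids, was at 1364 ± 314 CPM (SD, n = 5) against 877 ± 176 (n = 3). Slc25a51, the mitochondrial NAD carrier, was at 125, 100.3, 130.1, 120.0 and 111 CPM in alcohol and 66.2, 83.8 and 94.5 in HFD, a difference of 0.53 ± 0.15 (SE). Slc19a2, a thiamine transporter, was at 123 ± 13.4 CPM (SD, n = 5) against 90.2 ± 11.9 (n = 3), and Slc18a2, a vesicular monoamine transporter, at 5.97 ± 0.494 CPM (SD, n = 5) against 4.17 ± 0.295 (n = 3). Znrf3, a ubiquitin ligase that removes Wnt receptors, was at 20.9, 16.9, 18.2, 17.4 and 21.4 CPM in alcohol and 13.2, 12.6 and 16.6 in HFD, with a difference of 0.4 ± 0.14 (SE). Eva1a, a protein of autophagy, Cpeb2, which binds mRNA, and the zinc finger gene Zfp97 differed by 0.44, 0.56 and 0.45. Without HFD replicate 1 the differences of all 12 ran from 0.27 for Eva1a to 1.06 for Cd163.

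**Figure D2:**
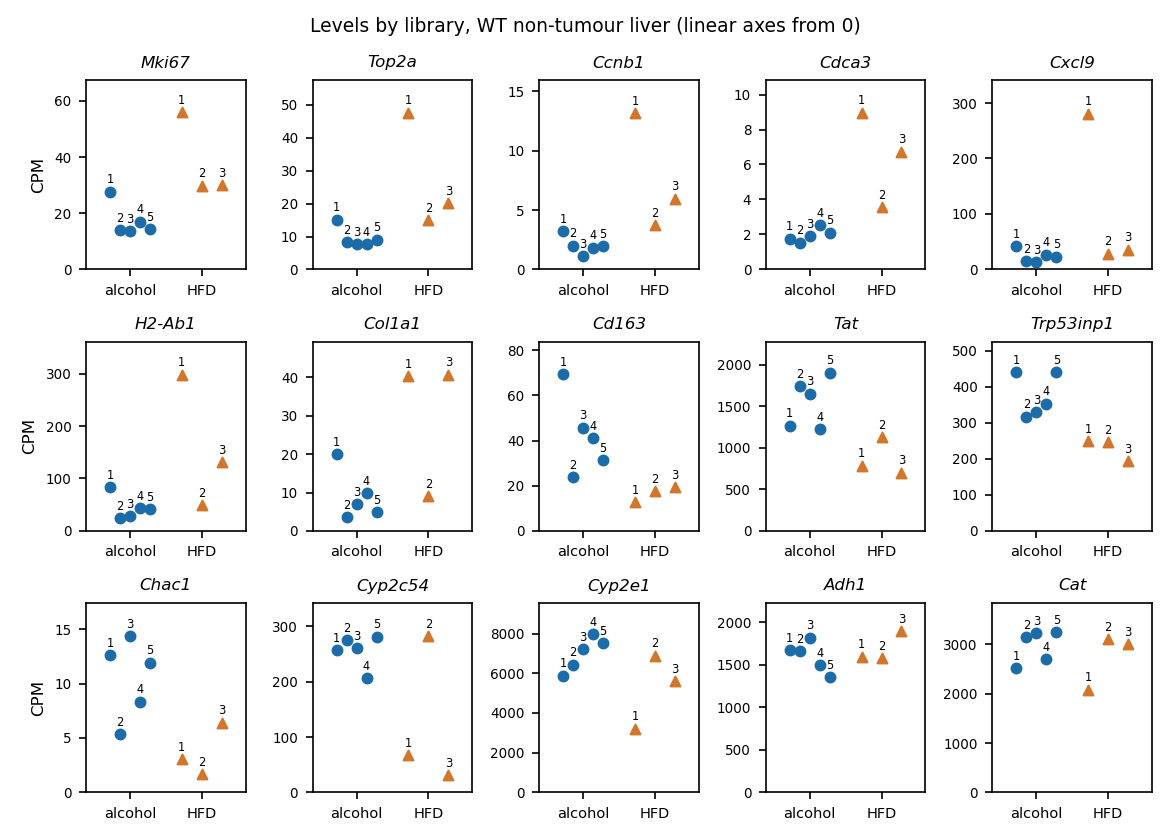
CPM of 15 genes in each WT non-tumour library on linear axes from 0; circles are the 5 alcohol and triangles the 3 HFD libraries, numbered by replicate. Mki67, Ccnb1 and Cdca3 are lower and Cd163, Tat and Trp53inp1 higher in every alcohol library, while for Cyp2c54 HFD replicate 2, at 282 CPM, sits with the alcohol libraries.

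Interferon-stimulated genes, switched on after interferon binds its receptor, had lower means in alcohol throughout. All 41 tested members had a negative difference, with and without HFD replicate 1, against 66.5% and 60.5% of all genes. The median was -0.54, and -0.41 without that library. The spread between libraries was as wide as the difference: the mean log2 level of the list was 5.24, 4.61, 4.01, 4.7 and 4.5 in alcohol and 5.68, 4.82 and 5.18 in HFD, so alcohol replicate 1 lay above HFD replicates 2 and 3. The diets did not overlap in 3 of 41 members against 2.53% of all genes. These were Psmb9, an immunoproteasome subunit, and the signalling genes Stat2 and Ddx58, named after their values were seen; Psmb9 was at 20.9, 20.98, 18.1, 16.8 and 17.5 CPM in alcohol and 49.5, 21.7 and 26.2 in HFD. At an unadjusted p under 0.05 there were 6 of 41 lower, against 3.15% of all genes, and 0 higher. Without HFD replicate 1 there were 0 lower, against 0.864%, and 0 higher.

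Among the chemokines that attract T cells, Cxcl9 was at 41.6, 15.2, 12.8, 26.7 and 22.7 CPM in alcohol and 281, 28.4 and 35.7 in HFD, a difference of -1.56 ± 0.58 (SE), and HFD replicate 1 stood far above the other 7 libraries. Without it the difference was -0.53. Cxcl10 was at 15.4, 5.21, 5.52, 5.79 and 4.59 CPM in alcohol and 37.8, 10.7 and 11.1 in HFD, with differences of -1.22 ± 0.54 (SE) and, without HFD replicate 1, -0.65. Of the GTPases that act against intracellular microbes, Gbp2 was at 52.7, 13.2, 9.13, 27.3 and 15.2 CPM in alcohol and 164, 23.2 and 37.4 in HFD and Igtp at 71.4, 44.9, 22.2, 52.9 and 40.2 CPM in alcohol and 253, 71.4 and 68.4 in HFD, with differences of -1.39 and -1.29, and -0.58 and -0.68 without HFD replicate 1. Irf7, which amplifies type I interferon, was at 113, 75.2, 44.05, 58.9 and 62.4 CPM in alcohol and 98.6, 60.8 and 133 in HFD, and its diets overlapped fully.

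The interferon-stimulated response element was searched as GAAANNGAA on both strands in the same promoters. It was found for 22 of the 32 interferon members with a promoter in the table (68.8%), against 9.8% of all genes and 9.0% of tested genes. The 4 members with the largest differences each held a match, and their stretches are shown in the direction of the gene, with capitals for the match. Cxcl9 (chr5:92328205-92328329) and Cxcl10 (chr5:92349015-92349139) lie on the minus strand, and Gbp2 (chr3:142620538-142620662) and Igtp (chr11:58199431-58199555) on the plus strand.
Cxcl9: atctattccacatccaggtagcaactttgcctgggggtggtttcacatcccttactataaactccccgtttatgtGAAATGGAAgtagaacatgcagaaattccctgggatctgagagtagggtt
Cxcl10: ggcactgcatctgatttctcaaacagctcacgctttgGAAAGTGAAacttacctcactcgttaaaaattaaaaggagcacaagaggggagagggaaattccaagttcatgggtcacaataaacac
Gbp2: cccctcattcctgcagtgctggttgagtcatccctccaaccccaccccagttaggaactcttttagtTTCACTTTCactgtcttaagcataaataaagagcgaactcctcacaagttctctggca
Igtp: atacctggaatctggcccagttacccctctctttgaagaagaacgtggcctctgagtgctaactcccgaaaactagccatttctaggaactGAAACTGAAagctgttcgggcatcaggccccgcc
The matches begin 175 bases before the start in Cxcl9, 213 in Cxcl10, 58 in Gbp2, where it lies on the other strand, and 34 in Igtp. Both chemokine matches lie farther from the start than both GTPase matches.

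Genes that present antigen on MHC class II, carried by macrophages, dendritic cells and B cells, had the most negative list median, -1.22, with 11 of 11 tested members negative. It was -0.69 without HFD replicate 1, with 10 of 11 negative. The class II chains H2-Aa, H2-Ab1 and H2-Eb1 ran in parallel over the libraries. H2-Ab1 was at 82.9, 24.5, 28.3, 43.4 and 41.8 CPM in alcohol and 298, 48.9 and 131 in HFD, a difference of -1.6 ± 0.66 (SE); HFD replicates 1 and 3 were highest, and HFD replicate 2 lay below alcohol replicate 1. H2-Aa and H2-Eb1 differed by -1.53 and -1.62, and Cd74, the invariant chain that guards their groove, by -1.4. Ciita, the master activator of these genes, was at 10.2, 2.91, 3, 4.24 and 4.98 CPM in alcohol and 33.6, 5.96 and 13.2 in HFD, a difference of -1.43 ± 0.57 (SE). No member was free of overlap (0 of 11, against 2.53% of all genes). At an unadjusted p under 0.05 were 6 of 11, all lower, against 3.15% of all genes. Without HFD replicate 1 it was 0 of 11, against 0.864%. The 20 markers of monocyte-derived macrophages in the table summed to 712, 267, 240.0, 445 and 262 CPM in alcohol and 937, 302 and 716 in HFD, highest in the libraries where the class II chains were highest, and their part in the class II and interferon values was not tested.

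Markers of monocyte-derived and lipid-associated macrophages, which gather around fat-laden hepatocytes, were also highest in HFD replicates 1 and 3 and alcohol replicate 1. All 19 tested members had a negative difference, with a median of -0.88, and 17 of 19 with a median of -0.56 without HFD replicate 1; the diets overlapped in all 19. Gpnmb, a glycoprotein of lipid-laden macrophages, was at 47.3, 1.53, 5.05, 29.1 and 5.38 CPM in alcohol and 60.7, 4.94 and 57.9 in HFD. It was high in alcohol replicates 1 and 4 and HFD replicates 1 and 3 and low in the others, on either diet. Itgax, the CD11c integrin, was at 6.74 ± 6.61 CPM (SD, n = 5) against 19.6 ± 17.2 (n = 3), and Clec7a, the receptor for fungal glucan, at 23.97 ± 17.1 CPM (SD, n = 5) against 60.8 ± 41.2 (n = 3). Cx3cr1, the fractalkine receptor of monocytes, was at 4.61, 1.69, 0.789, 2.402 and 1.31 CPM in alcohol and 9.67, 3.41 and 6.63 in HFD, a difference of -1.28 ± 0.49 (SE).

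Of the markers of resident macrophages, the Kupffer cells, 10 of 17 had a negative difference, with a median of -0.37, and of -0.12 without HFD replicate 1. The mean log2 level of their list was 6.51, 5.86, 5.75, 6.03 and 5.84 in alcohol and 6.59, 5.62 and 6.1 in HFD, highest in HFD replicate 1 and alcohol replicate 1. Their defining markers Clec4f and Vsig4 overlapped, at 195 to 297 CPM in alcohol and 171 to 225 in HFD for Clec4f and 52.1 to 79.4 against 42.1 to 67.8 for Vsig4. Cd163 and Fcna were the 2 of 17 above all HFD libraries, against 0.560% of all genes. Timd4, a receptor for dying cells carried by long-lived Kupffer cells, was at 11.7, 13.9, 8.05, 10.7 and 9.57 CPM in alcohol and 14.01, 4.94 and 3.93 in HFD, and the diets separated only without HFD replicate 1, with a difference of 1.1. Adgre1, the F4/80 antigen of both kinds of macrophage, was at 80.1 ± 22.8 CPM (SD, n = 5) against 133 ± 60.5 (n = 3).

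Lymphocyte markers were scarce. Of the 25 listed T and NK cell markers 13 were tested, and 12 of these were negative with a median of -0.48; without HFD replicate 1, 7 were negative and the median was -0.28. With only genes at 5 CPM or more kept, their median was 0.17, which is the value of the highest single member and not of the list as a whole. Cd8a, the co-receptor of cytotoxic T cells, was at 1.08, 0.919, 0.789, 0.283 and 1.18 CPM in alcohol and 3.78, 1.19 and 1.24 in HFD, near the floor in alcohol. Gzmb, a granule protease, was at 2.03, 1.07, 0.789, 0.848 and 0.918 CPM in alcohol and 4.62, 1.19 and 2.02 in HFD, and Ccl5, a chemokine they release, at 3.79, 1.84, 0.947, 1.98 and 1.97 CPM in alcohol and 8.27, 3.07 and 2.36 in HFD. HFD replicate 1 was highest for all 3. Of the neutrophil markers 4 of 14 in the table were tested, with a median of -0.38 that was -0.05 without HFD replicate 1, when 2 of 4 were negative. Of the B and plasma cell markers 3 of 13 were tested, at -0.16. Ly6g, a neutrophil antigen, was listed at 0 in all 8 libraries. Of IL-17-responsive genes 11 of 12 were negative, with a median of -0.38 and of -0.16 without HFD replicate 1, when 7 of 12 were; Il1b, interleukin-1 beta, was at 3.53 ± 1.63 CPM (SD, n = 5) against 7.48 ± 4.03 (n = 3). Of dendritic cell markers 8 of 9 were negative, at a median of -0.36, which was -0.12 without HFD replicate 1.

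Stellate cell and fibrosis genes mostly had lower means in alcohol, with 24 of 25 tested members negative and a median of -0.51. Without HFD replicate 1 there were 22, with a median of -0.32. No member was free of overlap (0 of 25, against 2.53% of all genes). At an unadjusted p under 0.05 there was 1 lower, against 3.15% of all genes, and 0 without HFD replicate 1, against 0.864%. Col1a1, the main chain of fibrillar collagen, was at 20.1, 3.52, 6.95, 9.75 and 4.85 CPM in alcohol and 40.4, 9.03 and 40.7 in HFD, a difference of -1.58 ± 0.84 (SE). HFD replicates 1 and 3 were highest and HFD replicate 2 lay within the alcohol range. Col3a1 was at 84.7 ± 54.1 CPM (SD, n = 5) against 185 ± 94.2 (n = 3) and Col1a2 at 25.5 ± 17.4 CPM (SD, n = 5) against 55.99 ± 30.4 (n = 3). Alcohol replicate 1 was the highest of its group for both, at 174 and 54.7 CPM. Col6a1, a microfibrillar collagen, was at 10.6 ± 4.97 CPM (SD, n = 5) against 21.8 ± 9.34 (n = 3), a difference of -0.97 ± 0.4 (SE). Markers of quiescent stellate cells overlapped too: Lrat, which stores vitamin A, was at 36.7 to 135 CPM in alcohol and 56.2 to 93.5 in HFD. Among endothelial markers 12 of 20 were negative, at a median of -0.04, close to that of all genes. All 9 cholangiocyte and progenitor markers were negative, at a median of -0.41, and 7 of 9 at -0.27 without HFD replicate 1. Spp1, osteopontin, was at 56.1, 30.5, 20.8, 34.6 and 27.7 CPM in alcohol and 75.5, 41.6 and 107 in HFD, a difference of -1.09 ± 0.47 (SE), which without HFD replicate 1 was -1.03. The tumour marker list had a median of -0.76 that came to -0.21 without HFD replicate 1.

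**Figure D3:**
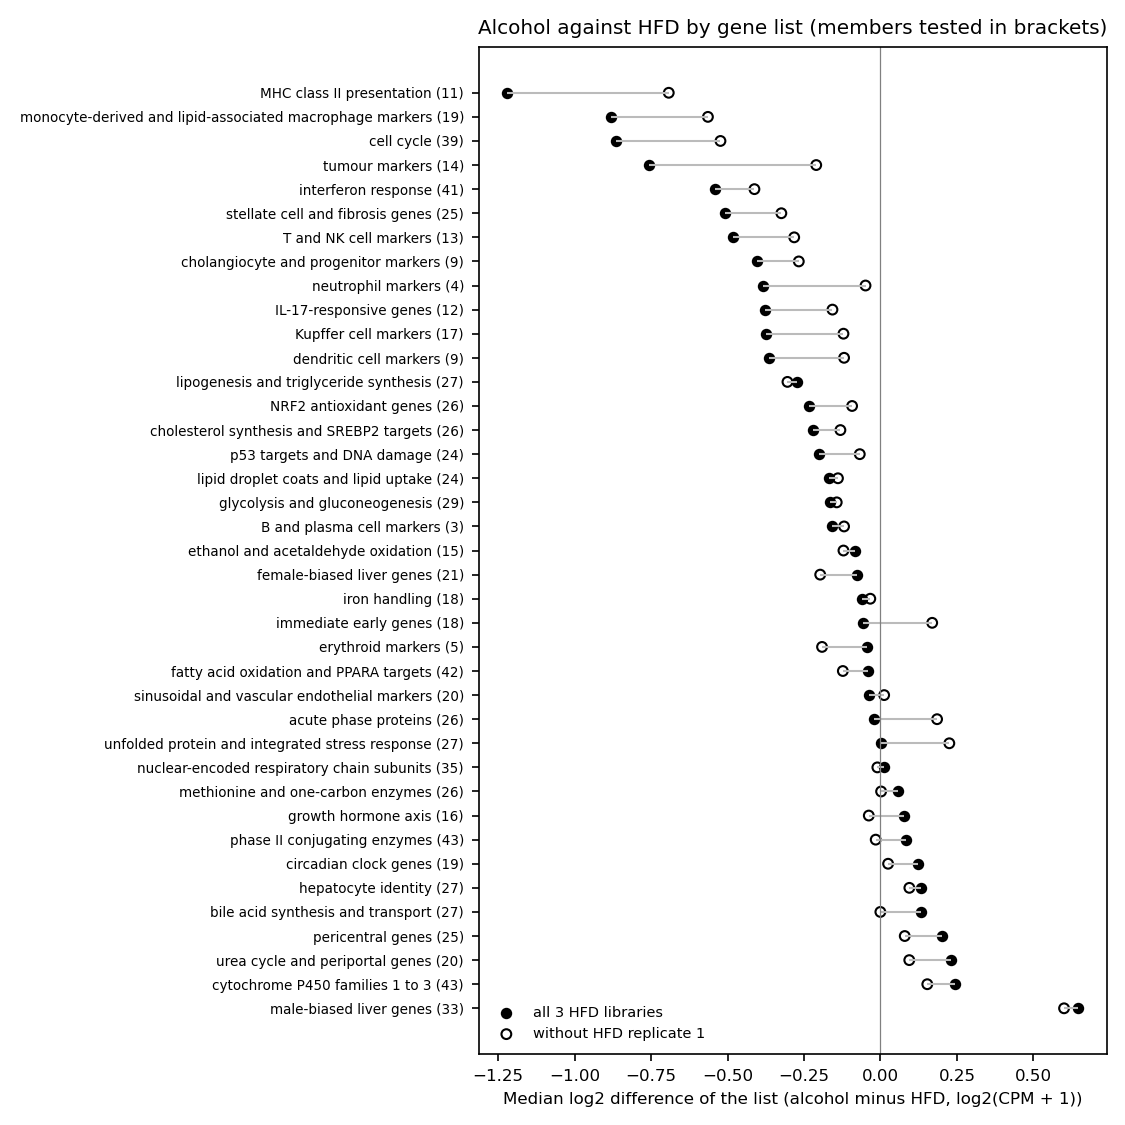
Median log2 difference (alcohol minus HFD) of the tested members of 39 gene lists with 3 or more tested members, with all 3 HFD libraries (filled) and without HFD replicate 1 (open); the number tested is in brackets. Leaving out HFD replicate 1 moves the tumour marker, MHC class II and cell cycle lists most toward 0, and the male-biased list least among the large medians.

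The genes that oxidise ethanol were not distinguishable between the diets. Adh1 was at 1671, 1661, 1819, 1494 and 1355 CPM in alcohol and 1596, 1582 and 1893 in HFD, a difference of -0.08 ± 0.14 (SE), with full overlap. Aldh2 was at 1114, 1197, 1268, 1057 and 1277 CPM in alcohol and 1102, 1050 and 1546 in HFD, with -0.04 ± 0.13 (SE). Cat was at 2520, 3143, 3226, 2700 and 3249 CPM in alcohol and 2080, 3102 and 2998 in HFD, with 0.14 ± 0.17 (SE). Cyp2e1 was at 5882, 6432, 7222, 7983 and 7504 CPM in alcohol and 3210, 6880 and 5585 in HFD, a difference of 0.48 ± 0.23 (SE); HFD replicate 1 was lowest, HFD replicate 2 lay among the alcohol libraries, and without HFD replicate 1 the difference was 0.17. These values are of mRNA, while ethanol is known to raise the Cyp2e1 protein mainly by slowing its breakdown. Of the 15 tested members of the list 10 were negative, with a median of -0.08, that of all genes. Adh7, the class IV alcohol dehydrogenase, was at 14.6, 8.42, 17.5, 12.3 and 17.1 CPM in alcohol and 6.86, 17.7 and 6.52 in HFD. The aldehyde dehydrogenases Aldh1b1 and Aldh3a2 differed by -0.36 and -0.27, both with overlap.

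The cytochrome P450 genes of families 1 to 3, which clear drugs, steroids and fatty acids, leaned the other way from most genes: 36 of 43 were positive, with a median of 0.24, against -0.08 over all genes. Without HFD replicate 1, 31 were positive and the median was 0.15. Cyp2c54 (ENSMUSG00000067225, chromosome 19, 40037940 to 40073827, GRCm38) was at 257, 274, 260.5, 207 and 281 CPM in alcohol and 67.1, 282 and 31.4 in HFD, a difference of 1.58 ± 0.49 (SE). The 5 alcohol values were even, HFD replicates 1 and 3 were far lower, and HFD replicate 2 was the highest of all 8. Cyp2c37 was at 483, 539.7, 646, 479 and 519.5 CPM in alcohol and 151, 537 and 128 in HFD, a difference of 1.28 ± 0.37 (SE); HFD replicates 1 and 3 were again far lower and HFD replicate 2 lay among the alcohol libraries. Cyp2c50 was at 1008 ± 147 CPM (SD, n = 5) against 636 ± 362 (n = 3) and Cyp2c29 at 1080 ± 461 CPM (SD, n = 5) against 646 ± 518 (n = 3). These Cyp2c genes are near-identical copies in a cluster, so reads may be shared among them. When HFD replicate 2 was left out, Cyp2c54 and Cyp2c37 were the 2 genes called by limma, with differences of 2.44 and 1.92 and an adjusted p of 0.0343 each; with it they were not. Cyp2c69, a member of the female-biased list too, was at 44.7, 4.63, 0.676, 11.2 and 3.96 CPM in alcohol and 1.36, 4.37 and 0.242 in HFD, high in alcohol replicate 1 alone. Sult2a8, a bile acid sulphotransferase, followed Cyp2c54, at 557, 794, 705, 647 and 914 CPM in alcohol and 206, 870.3 and 118 in HFD. In the glutathione transferases Gstm3 and Gstm2 the order was turned, with Gstm3 at 139.8, 89.2, 138, 81.1 and 49.97 CPM in alcohol and 279, 80.01 and 366 in HFD and Gstm2 at 46.9, 68.6, 43.7, 46.4 and 40.5 CPM in alcohol and 76.5, 44.3 and 128 in HFD.

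Male-biased liver genes, which pulsed growth hormone keeps high through STAT5B, had the most positive list median, 0.65, and 0.6 without HFD replicate 1. A positive difference was found in 30 of 33 members, and in 28 without that library. No member was free of overlap (0 of 33, against 2.53% of all genes lower and 0.560% higher). The mean log2 level of the list was 7.29, 8.9, 7.65, 8.03 and 8.61 in alcohol and 7.18, 8.47 and 6.39 in HFD. On this value HFD replicate 2 lay above 3 of the 5 alcohol libraries and HFD replicates 1 and 3 below all 5. Mup19, a major urinary protein that carries pheromones, was at 2507, 6974, 3187, 4243 and 4787 CPM in alcohol and 1538, 5289 and 227 in HFD, a difference of 1.73 ± 0.82 (SE). Mup1 was at 29.7, 352, 46.5, 14.4 and 244 CPM in alcohol and 3.06, 135 and 3.03 in HFD and Mup7 at 223, 7706, 491, 2455 and 4153 CPM in alcohol and 348, 2570 and 114 in HFD, and both varied widely within each diet. The urinary protein genes are near-identical, so their separate values are uncertain. In female-biased genes the median was -0.08 and 11 of 21 were negative, and genes of the growth hormone axis stood at 0.08, or -0.2 and -0.04 without HFD replicate 1; Cish, a STAT5 target, was at 2.701, 2.91, 12.8, 14.4 and 18.8 CPM in alcohol and 19.3, 9.03 and 18.2 in HFD. The sexes of the mice are not given, the values used here held neither Xist nor Y-linked genes, and a part of sex in these values was not tested.

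Other hepatocyte lists had medians nearer 0. The hepatocyte identity list stood at a median of 0.13 (19 of 27 positive) and urea cycle and periportal genes at 0.23 (18 of 20). Without HFD replicate 1 these were 0.09 and 0.09. Hpd, which degrades tyrosine after Tat, was at 946, 1802, 1632, 1133 and 1571 CPM in alcohol and 644, 1307 and 1015 in HFD, and Cps1, the first enzyme of the urea cycle, at 5518 ± 1526 CPM (SD, n = 5) against 4042 ± 811 (n = 3). Pck1, the gluconeogenic enzyme, was at 3421, 2460, 3133, 3317 and 3123 CPM in alcohol and 1876, 1875 and 3380 in HFD. In pericentral genes the median was 0.2 and 17 of 25 were positive, and without HFD replicate 1 it was 0.08 with 14 positive. Besides the Cyp2c genes, Slc1a2, a glutamate transporter, was at 446 ± 114 CPM (SD, n = 5) against 297 ± 106 (n = 3). Bile acid genes had a median of 0.13, which was near 0 without HFD replicate 1. Cyp7b1, a hydroxylase of bile acid synthesis that is also male-biased, was at 313 ± 158 CPM (SD, n = 5) against 180.5 ± 154 (n = 3). The uptake carrier Slco1a1 was at 347 ± 156 CPM (SD, n = 5) against 220.4 ± 237 (n = 3). Glycolysis and gluconeogenesis had 22 of 29 negative with a median of -0.16; Hk2, a hexokinase scarce in normal hepatocytes, was at 15.6, 5.05, 5.21, 7.21 and 5.901 CPM in alcohol and 29.7, 8.18 and 19.8 in HFD.

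Lists of genes that make and store fat had shares of negative members somewhat above the 66.5% of all genes. Without HFD replicate 1 the share of all genes was 60.5%. Then 21 of 27 lipogenesis, 19 of 24 lipid droplet and 20 of 26 cholesterol synthesis genes were negative. Lipogenesis and triglyceride synthesis had 20 of 27 negative and a median of -0.27, which was -0.3 without HFD replicate 1. Fasn, fatty acid synthase, was at 511, 579, 884, 279.9 and 219 CPM in alcohol and 952, 452 and 842 in HFD, a difference of -0.7 ± 0.38 (SE); alcohol replicate 3 lay between HFD replicates 1 and 3. Pnpla3, a lipid droplet hydrolase, was at 0.271, 2.14, 0, 1.13 and 0.918 CPM in alcohol and 3.36, 4.94 and 1.01 in HFD, at or under the floor in 2 alcohol libraries, with a difference of -1.09 ± 0.48 (SE). Lpin1, which makes diacylglycerol, went the other way, at 424, 56.5, 214, 789.7 and 253 CPM in alcohol and 74.95, 94.2 and 271 in HFD. In the lipid droplet list 19 of 24 were negative, at a median of -0.17; Cidec, which fuses droplets, was at 96.7, 18.7, 47.7, 60.5 and 19.5 CPM in alcohol and 95.3, 30.7 and 148 in HFD, high in alcohol replicate 1 and HFD replicates 1 and 3. Of cholesterol synthesis genes 20 of 26 were negative, at a median of -0.22, or -0.13 without HFD replicate 1, and Idi1, isopentenyl diphosphate isomerase, was the 1 member without overlap, at 11.3, 14.7, 13.99, 16.3 and 10.7 CPM in alcohol and 25.2, 18.7 and 17.7 in HFD. Fatty acid oxidation had a median of -0.04 with 22 of 42 negative, and of -0.12 with 33 of 42 negative without HFD replicate 1. Respiratory chain subunits stood at 0.01 and, without that library, at -0.01.

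Among stress genes single members stood out, and list medians moved when HFD replicate 1 was left out. Chac1, a glutathione-degrading enzyme induced through ATF4 (ENSMUSG00000027313, chromosome 2, 119351229 to 119354381, GRCm38), was at 12.6, 5.36, 14.4, 8.34 and 11.9 CPM in alcohol and 3.08, 1.704 and 6.41 in HFD, a difference of 1.34 ± 0.38 (SE), and 1.3 without HFD replicate 1. Alcohol replicate 2 lay below HFD replicate 3 and the other 4 alcohol libraries above all HFD values. The unfolded protein and stress list as a whole had a median near 0, 0.0022, with 13 of 27 negative, against 66.5% of all genes. Without HFD replicate 1 its median was 0.23 with 4 of 27 negative, against 60.5% of all genes. Of 24 p53 and DNA damage genes 16 were negative, with a median of -0.2, or -0.07 without HFD replicate 1. The 2 above all HFD libraries, against 0.560% of all genes, were Trp53inp1 and Ddit4. Ddit4, an inhibitor of mTORC1, was at 29.9, 15.6, 30.6, 16.96 and 22.03 CPM in alcohol and 11.3, 7.16 and 11.8 in HFD, a difference of 1.09 ± 0.59 (SE). Cdkn1a, the p21 inhibitor of cell division, was at 11.4, 3.83, 2.37, 10.6 and 2.23 CPM in alcohol and 12.2, 5.11 and 10.9 in HFD. Tfr2, the iron sensor of hepatocytes, was at 335, 356, 349.5, 288 and 353 CPM in alcohol and 231, 290.5 and 278 in HFD, a difference of 0.34 ± 0.11 (SE). Of NRF2 antioxidant genes 20 of 26 were negative, at a median of -0.23, which was -0.09 without HFD replicate 1. The acute phase, iron, clock, one-carbon, erythroid, phase II conjugation and immediate early lists had medians between -0.06 and 0.12, and without HFD replicate 1 between -0.19 and 0.18. Acute phase genes were at the upper end of that second range, with 20 of 26 positive.

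The same diets were compared in non-tumour liver labelled IL17RA-/-, with 5 alcohol and 3 HFD libraries that share no sample with the WT libraries. Labelled HFD replicate 3 held markers of tumours. In labelled HFD libraries Afp was at 0.873, 8.6 and 155 CPM, Gpc3 at 4.475, 4.94 and 263 and Prom1 at 0.764, 1.5 and 10.9. WT tumours on HFD held 66.3 to 401 CPM of Gpc3. All labelled values below include that library, and whether it holds tumour tissue was not tested. Il17ra itself overlapped between the labels, at 30.8, 20.1, 36.97, 15.9 and 26.9 CPM in labelled alcohol and 36.1, 16.6 and 20.9 in labelled HFD libraries and 42.5, 16.1, 27.3, 20.6 and 31.1 CPM in alcohol and 25.2, 27.3 and 26.3 in HFD of WT, so the genotype is given as labelled. Limma called 0 genes (0%) for the difference of the alcohol effect between the labels, with a lowest adjusted p of 0.966 and 515 genes at an unadjusted p under 0.05. In the labelled libraries 39.7% of genes had a negative difference, against 66.5% in WT, and 53.5% of genes had the same sign in both. The cell cycle list was at 0.11 there, with 12 of 39 negative, against -0.87 and 38 of 39 in WT. Cdca3 was at 4.01, 0.976, 4.16, 2.67 and 6.04 CPM in labelled alcohol and 1.86, 2.15 and 2.38 in labelled HFD libraries, and the WT effect minus the labelled effect was -1.69 ± 0.46 (SE). For Ccnb1 that difference was -1.57 ± 0.7 (SE). Both genes were named for their WT difference, which is part of these values, so the choice itself favours large ones.

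The MHC class II and monocyte-derived macrophage lists were negative under both labels, at -0.6 and -0.6 in the labelled libraries, as was the fibrosis list at -0.4 with 23 of 25 negative. Col1a1 differed by -1.58 in WT and -1.17 in the labelled libraries, and Cd163 by 1.23 and 0.77. Cholesterol synthesis had opposite signs, with 0 of 26 negative and a median of 0.72 in the labelled libraries, and lipogenesis was at 0.18. Fatty acid oxidation was at -0.28 there, with 40 of 42 negative. Idi1 differed by -0.58 in WT and 1.6 there, and Fasn by -0.7 and 0.68. Chac1 was at 4.01, 4.18, 6.98, 1.55 and 3.796 CPM in labelled alcohol and 6.22, 11.4 and 8.28 in labelled HFD libraries, and the WT effect minus the labelled effect was 2.31 ± 0.53 (SE). Cyp2c54 was at 111, 180.2, 189.9, 310.5 and 269.9 CPM in labelled alcohol and 119, 217 and 127 in labelled HFD libraries, with a difference of 0.43 against 1.58 in WT. None of these differences between the labels passed limma, and Chac1 too was named for its WT difference, which is part of its value.

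**Figure D4:**
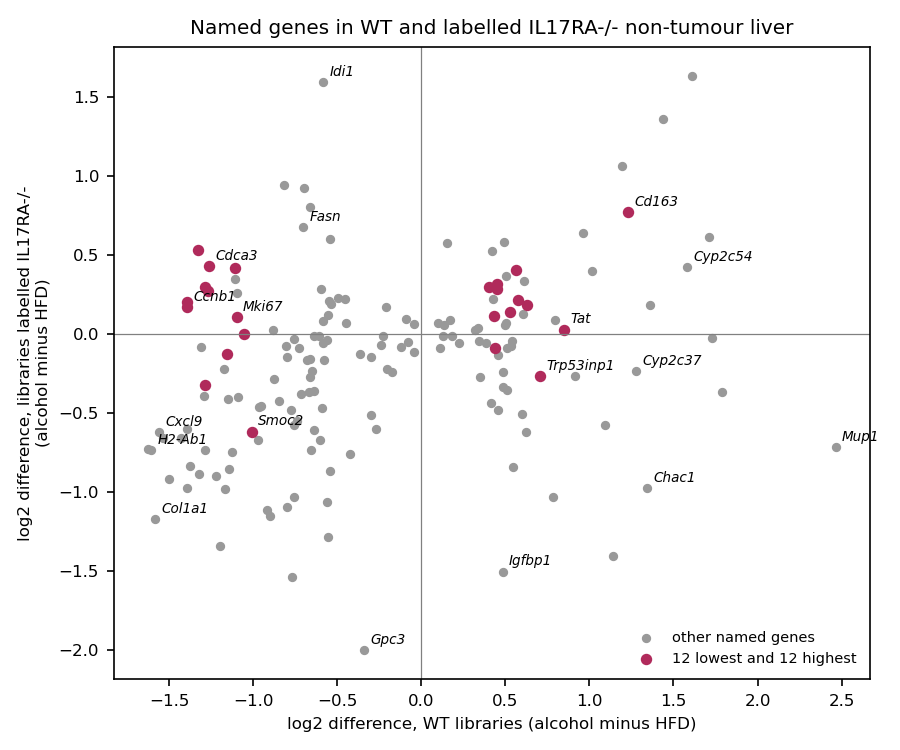
Log2 difference (alcohol minus HFD, log2(CPM + 1)) of each named gene in WT (x axis) and labelled IL17RA-/- (y axis) non-tumour liver. Red points are the 12 genes each way that the naming rule gave for the largest WT difference without overlap, chosen on the x axis. Some genes whose diets overlapped lie farther out on that axis. Cdca3, at -1.26 in WT, lies above 0 on the y axis, while H2-Ab1, Cxcl9 and Col1a1 are negative on both axes.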

How the data were processed

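PolyA-selected stranded RNA libraries of liver were made per the labels' protocols, and, per the submitters' processing notes, STAR 2.5.1a, RSEM 1.3.0 and GRCm38 were used; for annotation and filters the sources used here give nothing. The deposited values are CPM made by the authors, each column with the same total. Of the nonzero values of the 8 libraries 84.2% to 85.0% were whole counts within 0.002 counts, so expected counts were recovered for limma-voom. The 3-count floor covers counting error only.

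Groups and replicate numbers came from the sample titles. Symbols and coordinates came from GENCODE M21, promoters from RefSeq (GRCm38.p6). limma 3.58.1 in R 4.3.3, with a variance trend, was fitted on log2(CPM + 1) of the 16 non-tumour libraries in 4 groups, and tested on simulated data. Each SE and p-value of the WT contrast thus rests on a spread that includes the libraries labelled IL17RA-/-. With limma on the 8 WT libraries alone the lowest adjusted p was 0.76. The scale understates differences of low genes. Tests were two-sided with Benjamini-Hochberg adjustment over all genes tested.

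Named genes were up to 12 each way with the largest difference among those at an unadjusted p under 0.05, no overlap between diets and, for the higher diet, a mean of at least 5 CPM, leaving out predicted genes; up to 4 members of each list with the largest absolute difference and a higher mean of at least 2 CPM; and fixed genes such as Afp, Adh1 and H2-Ab1. The 40 gene lists, the naming rule and the comparison were chosen with earlier results of these data known. Of their 912 genes, 898 were in the table and 810 were tested.

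Replicates of the same number in both diets had correlated deviations from their group means (r = 0.35, 0.27 and 0.14), although the labels state no pairing and HFD replicate 2 correlated more with alcohol replicate 5 (0.36) and HFD replicate 3 more with alcohol replicate 1 (0.20). A fit with the number as a replicate block called 0 genes. Alternatives were a pseudocount of 0.1, no filter, a filter at 5 CPM, median-ratio rescaling, fits on 8 or 29 libraries, limma-voom, array weights, the block and leaving out each library; leaving out both first libraries of each diet was chosen after seeing the data.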

Additional observations from a re-analysis of the deposited data

Results flagged for a closer look

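Of 177 values checked (the named genes and 10 list means), 11 had 1 of the 5 alcohol libraries far from the other 4 on the log2 scale, where chance flags about 1 in 20. Alcohol replicate 1 was the outlying library in 5 of them, each time the highest. It held 15.4 CPM of Cxcl10 against 4.59 to 5.79 in the others, 15.2 CPM of Top2a against 7.63 to 9.05, 4.61 CPM of Csf3r, the neutrophil growth factor receptor, against 2.54 to 3, 14.6 CPM of Zbtb46, a dendritic cell factor, against 7.87 to 9.31, and 2.03 CPM of Gzmb against 0.789 to 1.07. The same library lay with HFD replicates 1 and 3 on the first component.

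Alcohol replicate 2 was the outlier in 3. Its Igfbp1, an insulin-repressed binding protein, was at 159 CPM against 279 to 350, its Pck1 at 2460 against 3120 to 3420, and its Gstm2 at 68.6 against 40.5 to 46.9. The remaining 3 were Cidea, a lipid droplet protein, at 1.84 CPM in alcohol replicate 5 against 7.10 to 11.1, Ier5, an immediate early gene, at 2.68 CPM in alcohol replicate 3 against 5.64 to 7.32, and Tfr2 at 288 CPM in alcohol replicate 4 against 335 to 356.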

How the results depend on the processing

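The count of called genes was 0 under each alternative except without HFD replicate 2, where it was 2; leaving out 1 library it ran from 0 to 2. Genes at an unadjusted p under 0.05 numbered 154 to 1301 when 1 library was left out, 770 without a filter, 1302 with array weights and 222 without both first libraries of each diet. A replicate block changed no call: 0 genes were called for the diet and 0 for its difference between the labels, with a lowest adjusted p of 0.0934 for the diet, against 0.0343 to 1 over all alternatives. The cell cycle median was -0.523 without HFD replicate 1 and ran from -1.06 to -0.523 leaving out 1 library, always negative; the male-biased median ran from 0.336 to 1.15 and that of ethanol oxidation from -0.124 to 0.0024. Some medians turned sign: 7 of 39 with median-ratio rescaling, 4 with the block, 4 with array weights, 2 without a filter, 1 with limma-voom, 4 without both first libraries and 2 to 7 leaving out 1 library. With a filter at 5 CPM 3 did, among them that of T and NK cell markers (-0.481, then 0.169, the value of its highest single member).

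Of 167 named genes, those whose difference turned sign were small or uneven, and the cause was not tested. Leaving out 1 library, the difference ran from -1.25 to 0.321 for Acot3, -0.13 to 0.0024 for Adh1, -0.146 to 0.133 for Aldh2, -0.0471 to 0.241 for Cat, -0.129 to 0.292 for Alas2, -0.25 to 0.264 for Hba-a1, -0.263 to 0.221 for Hba-a2, -0.356 to 0.219 for Hbb-bs, -0.582 to 0.733 for Jchain, -1.15 to 0.395 for Gpc3, -0.0137 to 0.669 for Cebpb and -0.116 to 0.843 for Socs3. With the replicate block the signs of Adh1 (0.0261), Hba-a1 (0.0312) and Hba-a2 (0.0303) turned. Median-ratio rescaling turned Aldh2 (0.0385) and Hba-a1 (0.0352), and array weights turned Gpc3 (0.0584). Without both first libraries Ciart (-0.119), Gpc3 (0.329) and Onecut1 (0.0822) turned. A gene with 3 counts stood at 0.337 to 0.511 CPM in these 8 libraries, and differences below that level were not detectable at this depth.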
